A study of Mus musculus with 32 samples.

Results

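Rbp4 and Retsat, a pair of mouse genes of vitamin A transport and metabolism, were followed over all groups of a joint study with RNA sequencing of synovium and cartilage. They were chosen by name, with their changes in MMS synovium already known, and make up 2 of the 2544 genes listed in the deposited tables. Rbp4 is listed in the synovium table (1178 genes) and in the cartilage table (1606 genes), and Retsat in the synovium table. All mice were C57BL/6. Synovium came from R1 and R2 mice, from mice labelled MMS at D3, D7 and D14, and from Control mice (n = 3 per group, 18 samples). In cartilage the same groups and MMS D28 were measured (n = 2 per group, 14 samples). MMS, R1, R2 and the unit of the D numbers are not spelled out in the labels, and no age or procedure is described there. The labels do not say that replicates were separate animals, so p-values measure the spread between samples, which may be technical.

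Vitamin A circulates as retinol bound to retinol-binding protein 4, the product of Rbp4, which is secreted mainly by liver and also by fat cells. Inside cells, retinol is stored as retinyl esters, oxidised to retinal and then to retinoic acid, and retinoic acid acts through nuclear receptors until CYP26 enzymes break it down. Retsat encodes retinol saturase, an enzyme of the endoplasmic reticulum that saturates a double bond of retinol to give dihydroretinol, and it is known as a target of the fat cell receptor PPARγ that promotes fat cell differentiation.

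Rbp4 (ENSMUSG00000024990.13) lies at chr19:38116629-38125281 on the minus strand of GRCm38, with up to 6 exons in 4 annotated transcripts. Retsat (ENSMUSG00000056666.13) lies at chr6:72598475-72608425 on the plus strand, with up to 11 exons in 6 transcripts. The Retsat locus overlaps the gene model Gm45053, and whether reads were counted by strand is not stated, so reads of the overlap cannot be assigned with certainty. The promoter stretches below, from RefSeq on GRCm38.p6, are shown because the genes took different courses in synovium. Each is written 5′ to 3′ along the gene and stops short of annotated exons or keeps to 30 bases around a motif. Capitals mark matches, on either strand, to the TATA box letters TATAAA, to the GC box letters GGGCGG and to TTGCNNNA.
Rbp4, chr19:38124829-38124954, minus strand: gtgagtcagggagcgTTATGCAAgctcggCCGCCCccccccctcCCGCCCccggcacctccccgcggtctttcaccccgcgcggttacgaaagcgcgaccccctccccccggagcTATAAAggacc
Retsat, chr6:72598352-72598474, plus strand: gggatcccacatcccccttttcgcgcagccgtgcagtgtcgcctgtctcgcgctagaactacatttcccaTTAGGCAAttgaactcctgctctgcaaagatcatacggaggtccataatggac
Retsat, chr6:72598552-72598581, plus strand: tagagGGGCGGggcctcagcTATAAAagcc
TATAAA starts at -28 from the Rbp4 start site 38124811 and at -30 from the Retsat start site 72598602. It is found in 13.6% of the 32851 promoter windows of all genes, against 35.7% for GGGCGG and 33.4% for TTGCNNNA. A further Rbp4 start site, 38125321, has a window with TTGCNNNA and CCAAT (37.4% of windows). None of the 3 windows holds AGGTCA (16.3% of windows) or its direct repeats named DR1 (0.0396%) and DR5 (0.00913%), each of which holds AGGTCA. A match describes letters and is not evidence of binding.

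The tables hold selected genes and no read counts, so depth is unknown. The sum over listed genes lay between 70104.5 and 132996 in synovium samples and between 108504 and 149830 in those of cartilage. Means of MMS D14 and Control differed at least 1.5-fold for 98.0% of synovium genes, and those of MMS D28 and Control for 99.0% of cartilage genes. Each table thus appears selected on that comparison, so calls of any gene in it are a description. The median gene in synovium was at -0.34, -0.65 and -1.08 (log2 difference from Control) in MMS D3, MMS D7 and MMS D14, and at -0.38 in each of R1 and R2. A set of 5 synovium libraries, replicate 3 of every group but R1, stood apart with the gene model Gm2023 at 1.71 to 3.36 FPKM, against 12.6 to 56.2 FPKM in the other libraries. This set was defined from the data, and results that shift without it are given both ways. In synovium 4 of 6 synovial lining markers were listed, and in cartilage 5 of 8 chondrocyte markers, Col2a1 and Acan included, and none of those listed was at 0.

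In MMS synovium Rbp4 was far below Control in every group, and lowest in MMS D14. Fewer cells of a type and less RNA per cell cannot be told apart in bulk tissue. Rbp4 measured 530.59, 415.25 and 279.1 FPKM in the 3 Control samples. It measured 69.61, 115.67 and 95.3 FPKM in MMS D3 and 94.74, 94.37 and 73.6 FPKM in MMS D7. In MMS D14 it measured 26.63, 38.48 and 49.45 FPKM. No MMS sample reached the lowest Control sample, a pattern shared by 42.4%, 61.8% and 69% of all genes in the 3 groups. No MMS D14 sample reached the lowest of MMS D7, and the share of genes with that pattern was not computed. Means were 93.5 ± 23.1 FPKM in MMS D3, 87.6 ± 12.1 in MMS D7 and 38.2 ± 11.4 in MMS D14, against 408 ± 126 in Control (SD, n = 3 each), that is 4.37-fold, 4.66-fold and 10.7-fold lower. The log2 differences from Control were -2.10, -2.17 and -3.38 (SE 0.24 each), given without a test because the gene was chosen knowing them. They ranked 11, 7 and 10 from the lowest of 1178 genes, where the share called lower by limma was 39.6%, 61.6% and 69.3%. Without the 5 libraries that stood apart, the MMS D14 difference was -3.83, and it was -2.86 after centring of samples on their medians.

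**Figure D1:**
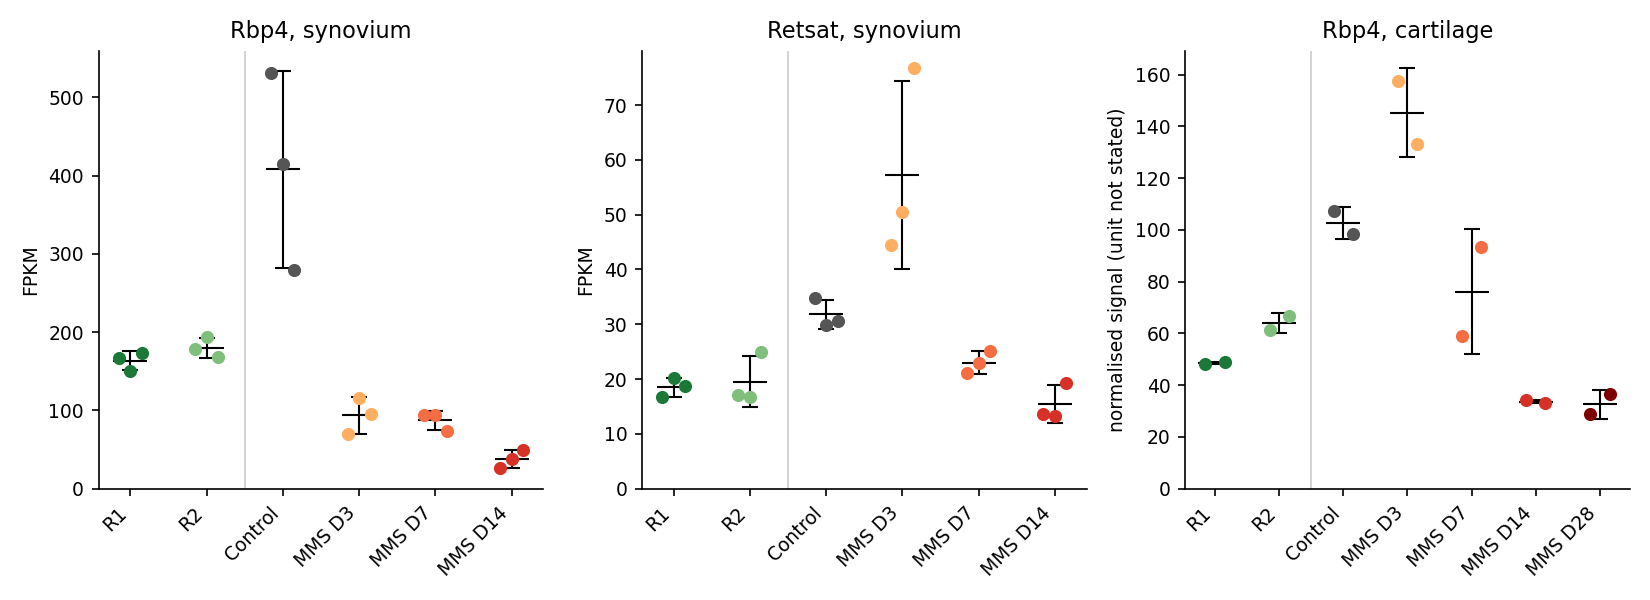
Rbp4 and Retsat in synovium (FPKM) and Rbp4 in cartilage (normalised signal, unit not stated), with a point per sample and the mean ± SD of each group (n = 3 in synovium, n = 2 in cartilage). Rbp4 in synovium was at 69.61 FPKM or more in MMS D3 and at 49.45 FPKM or less in MMS D14, with every Control sample at 279.1 FPKM or more, whereas Retsat was highest in MMS D3.

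Between successive MMS groups of synovium, Rbp4 stepped down late. These steps are differences of the values known when the genes were chosen, and so are given without a test. The log2 difference of MMS D7 from MMS D3 was -0.07 (95% interval -0.58 to 0.44), and the sign turned to 0.08 with centring, to 0.07 without the 5 libraries, to 0.09 without MMS D3 replicate 2 and to 0.05 without MMS D7 replicate 3. The difference of MMS D14 from MMS D7 was -1.21 (95% interval -1.72 to -0.70), rank 38 from the lowest, where 55.9% of all genes were called, and it was -1.53 without the 5 libraries.

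Retsat took another course: it was above Control in MMS D3 and below it in MMS D7 and MMS D14. Retsat measured 34.84, 29.94 and 30.68 FPKM in Control. It measured 44.47, 50.56 and 76.68 FPKM in MMS D3, 21.02, 22.97 and 25.07 FPKM in MMS D7, and 13.65, 13.19 and 19.37 FPKM in MMS D14. MMS D3 lay wholly above the Control samples, and MMS D7 and MMS D14 wholly below them, as 61.8% and 69% of all genes did. The groups of MMS did not overlap with each other. The share of all genes wholly above Control in MMS D3, or without overlap between MMS groups, was not computed. Means were 57.2 ± 17.1, 23.0 ± 2.03 and 15.4 ± 3.44 FPKM, against 31.8 ± 2.64 FPKM in Control (SD, n = 3 each). The log2 differences were 0.79, -0.45 and -1.02 (SE 0.20 each), again without a test. In MMS D3, 16.3% of all genes were called higher, and Retsat ranked 141 from the highest. Its MMS D3 value rested partly on the sample at 76.68 FPKM, which is of the set that stood apart, and the difference was 0.54 without that set. The MMS D7 difference of -0.45 was smaller than the shift of the median gene (-0.65), and with centring it was -0.17, as the MMS D14 difference was -0.50.

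The step of Retsat between MMS D3 and MMS D7 was among the larger ones in the table, again as a description. The log2 difference of MMS D7 from MMS D3 was -1.24 (95% interval -1.67 to -0.81), rank 4 from the lowest of 1178 genes, of which 30.4% were called and 18.3% called lower. That of MMS D14 from MMS D7 was -0.57 (95% interval -0.999 to -0.134), rank 373 from the lowest, and -0.33 with centring.

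In R1 and R2 synovium both genes were below Control, and Rbp4 was well above MMS D14 whereas Retsat was close to it. Rbp4 measured 166.85, 149.98 and 173.71 FPKM in R1 and 178.27, 193.54 and 168.06 FPKM in R2, between all MMS samples and all Control samples (51.3% of genes in R1 and 46.8% in R2 lay wholly below Control). R1 averaged 164 ± 12.2 and R2 180 ± 12.8 FPKM, against 408 ± 126 FPKM in Control (SD, n = 3 each). Rbp4 fell relative to Control in R1 (log2 difference -1.27, limma adjusted p = 0.000518) and in R2 (-1.13, adjusted p = 0.00115), in comparisons where 61.1% and 60.8% of genes were called. Comparisons that hold MMS D14 or Control samples share them with those known when the genes were chosen. Against MMS D14, Rbp4 rose by 2.11 in R1 (adjusted p = 4.55e-06) and by 2.25 in R2 (adjusted p = 2.46e-06), with 89% and 88.5% of genes called. These were 4.28-fold and 4.71-fold differences of means, ranks 16 and 12 from the highest.

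Retsat measured 16.69, 20.2 and 18.67 FPKM in R1 and 17.02, 16.74 and 24.87 FPKM in R2, all below every Control sample and overlapping MMS D14. Of all genes, 51.3% in R1 and 46.8% in R2 lay wholly below Control. The means were 18.5 ± 1.76 FPKM in R1 and 19.5 ± 4.62 FPKM in R2, against 31.8 ± 2.64 FPKM in Control (SD, n = 3 each). Retsat fell relative to Control in R1 (log2 difference -0.75, adjusted p = 0.00508) and in R2 (-0.70, adjusted p = 0.00846), and the R2 call was lost with centring (log2 difference -0.48, adjusted p = 0.0579). Against MMS D14 the log2 difference was 0.27 in R1 (95% interval -0.17 to 0.70, adjusted p = 0.218) and 0.32 in R2 (-0.11 to 0.75, adjusted p = 0.142). Without the 5 libraries these were 0.43 (adjusted p = 0.00590) and 0.31 (adjusted p = 0.0497), without MMS D14 replicate 3 alone the R2 difference was 0.49 (adjusted p = 0.0426), and with centring the R1 difference was -0.07 (adjusted p = 0.767). R2 and R1 were not distinguished for Rbp4 (log2 difference 0.14, 95% interval -0.37 to 0.65, adjusted p = 0.968) or Retsat (0.05, -0.38 to 0.49, adjusted p = 0.980). In that comparison limma called 0 of 1178 genes (0%), and 52 had an unadjusted p under 0.05. Without the 5 libraries it called 4 genes higher and 10 lower.

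**Figure D2:**
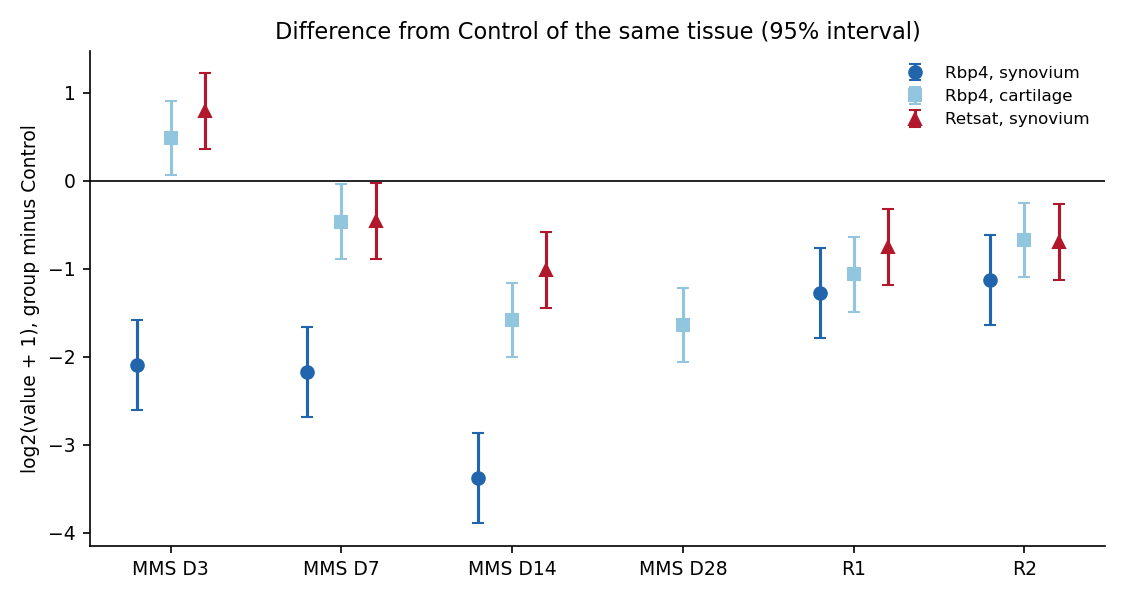
Log2 difference from Control of the same tissue for Rbp4 in synovium and cartilage and Retsat in synovium, with 95% intervals from limma. In MMS D3, Rbp4 in synovium lies at -2.10, Rbp4 in cartilage at 0.49 and Retsat at 0.79, and in MMS D14 all 3 lie below 0.

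Ordered by mean FPKM, Rbp4 in synovium ran Control, R2, R1, MMS D3, MMS D7, MMS D14, and the neighbours R2 and R1, and MMS D3 and MMS D7, overlapped. Retsat ran MMS D3, Control, MMS D7, R2, R1, MMS D14, and each group from MMS D7 downward overlapped the next. In MMS D14, Rbp4 ranked 265 from the highest mean of the 1178 listed genes, and in Control it ranked 53. Retsat ranked 405 in Control, 229 in MMS D3 and 495 in MMS D14.

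Within single samples the ratio of Rbp4 to Retsat separated the MMS groups from the rest. A ratio of FPKM values within a sample does not depend on its scaling. The log2 ratios were taken from log2(FPKM + 1) and keep some dependence on it, more so at low values. The ratio of FPKM values was 15.2, 13.9 and 9.10 in Control. It was 1.57, 2.29 and 1.24 in MMS D3, 4.51, 4.11 and 2.94 in MMS D7, and 1.95, 2.92 and 2.55 in MMS D14. Every MMS sample was below every Control sample, and MMS D3 held the lowest ratio. The log2 ratio differed from Control by -2.89, -1.72 and -2.36, given as a description. In R1 the ratio was 9.997, 7.42 and 9.30, and in R2 10.5, 11.6 and 6.76, which overlapped Control through Control replicate 3 alone. Every R1 and R2 sample was below Control replicates 1 and 2. The log2 ratio differed from Control by -0.52 in R1 and -0.44 in R2 (exact permutation p = 0.3 for each, two-sided, adjusted p = 0.45 over 6 ratio tests), and 3 against 3 cannot go below p = 0.1.

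The 17 fat cell markers were all listed in synovium, and their early course differed from that of Rbp4. The marker mean was at -0.67 in MMS D3 and -1.36 in MMS D7 (log2 difference from Control). Rbp4 was already at -2.10 in MMS D3 and stood at -2.17 in MMS D7. Most markers lay below Control, as Rbp4 did, in both later MMS groups and in both R1 and R2. By limma against Control, 9 markers fell in MMS D3, 15 at D7 and 17 at D14, while 17 fell in R1 and 16 in R2. The share of all genes called lower was 39.6%, 61.6% and 69.3% in these MMS groups, 45.2% in R1 and 45.1% in R2. The MMS D14 count is a description, as the listed genes appear selected on that comparison. The part of the markers in the members' differences was not tested. Their summed level was 36586 to 44770 FPKM in Control, 18831 to 31086 in MMS D3, 16224 to 18590 in MMS D7 and 6708 to 10384 in MMS D14. It was 18407 to 20317 FPKM in R1 and 17757 to 20063 in R2, and no marker was at 0. Rbp4 was lower relative to Control than 16 of the 17 markers in MMS D3 and MMS D7 and than 15 in MMS D14, and the exceptions included Adrb3, the fat cell beta-3 adrenergic receptor gene (-2.33, -3.40 and -4.62 on the log2 scale). Retsat was above all 17 in MMS D3 and MMS D14 and above 16 in MMS D7. Nearest to it was Plin4, which encodes a lipid droplet coat protein, at 0.47 in MMS D3 (adjusted p = 0.0606).

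Set against the mean log2 level of the 17 markers in the same sample, Rbp4 differed from Control by -1.42 in MMS D3, -0.81 in MMS D7 and -0.86 in MMS D14 (log2 ratio). Retsat relative to the markers differed from Control by 1.47, 0.91 and 1.51. The marker mean itself was at -0.67, -1.36 and -2.52 in these groups, -1.11 in R1 and -1.13 in R2. The median gene was at -0.34, -0.65 and -1.08, and at -0.38 in each of R1 and R2, so it too lay above the markers throughout. The share of all genes that rose relative to the markers was not computed. In R1 and R2 the Rbp4 differences were -0.16 and -0.01 (exact permutation p = 0.6 and 1.0, adjusted p = 0.72 and 1). Their overlap with Control rested on Control replicate 3, of the set that stood apart, at -1.19. Every R1 sample (-0.95 to -0.83) and every R2 sample (-0.88 to -0.65) was below Control replicates 1 and 2 (-0.42 and -0.60). The Retsat differences were 0.36 and 0.43 with no overlap with Control (exact permutation p = 0.1 each, the smallest that 3 against 3 gives, adjusted p = 0.3). Without the 5 libraries the Rbp4 differences were -1.62, -1.05 and -1.14 in the MMS groups, -0.38 in R1 and -0.16 in R2. Fibroblast markers (3 of 6 listed) moved the other way, with sums of 9079 to 10622 FPKM in MMS D14, against 1572 to 1799 in Control.

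**Figure D3:**
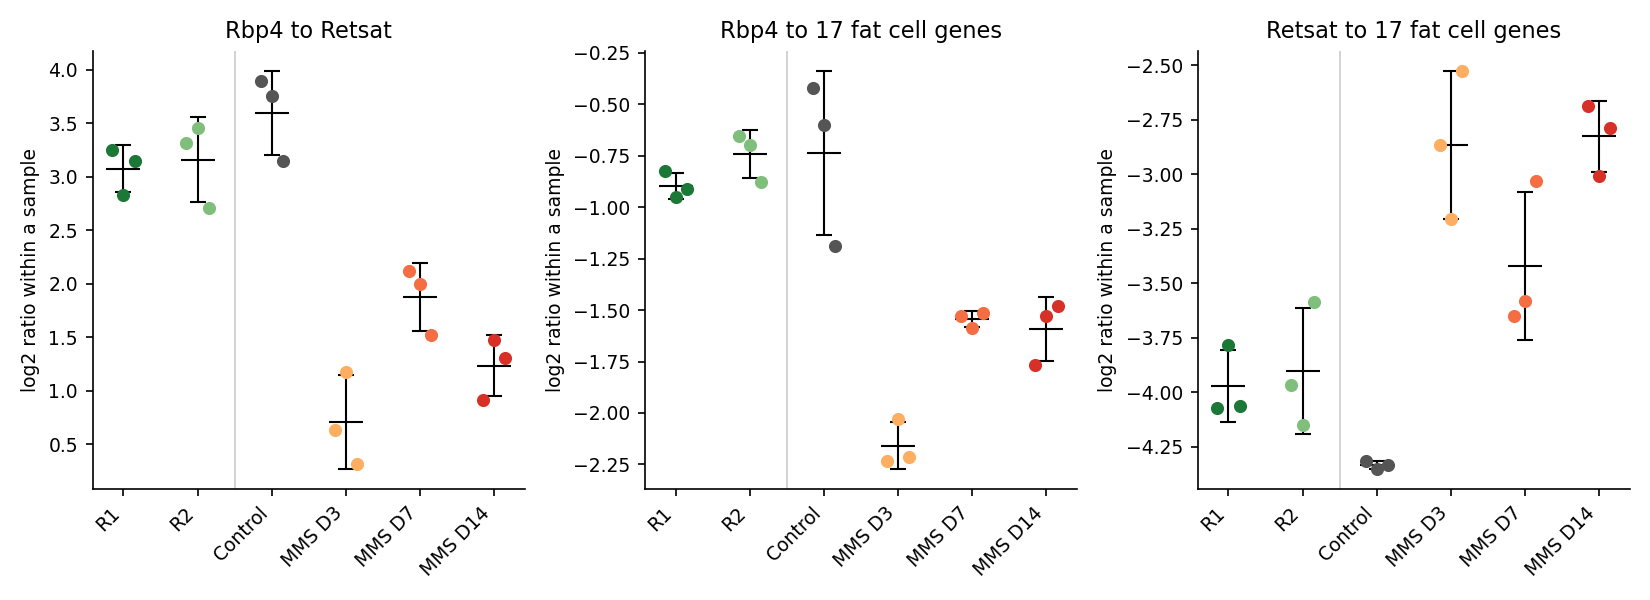
Log2 ratios within each synovium sample of Rbp4 to Retsat, Rbp4 to the mean of 17 fat cell markers and Retsat to that mean, with the mean ± SD of each group (n = 3). MMS samples lie below Control for both Rbp4 ratios and above it for Retsat to the markers. R1 and R2 overlap Control for both Rbp4 ratios, in each through Control replicate 3 alone.

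In cartilage, Rbp4 did not repeat the early synovium fall. The cartilage signal was 107.11 and 98.29 in Control, 157.38 and 133.01 in MMS D3, 58.98 and 93.33 in MMS D7, 34.14 and 33.13 in MMS D14, and 28.68 and 36.55 in MMS D28. Both MMS D3 samples were above, and both samples of each later MMS group below, the Control samples. Of all genes, 41.3% lay wholly above Control in MMS D3, and 35.2%, 40% and 55.1% wholly below it in MMS D7, MMS D14 and MMS D28. The MMS D3 difference from Control was 0.49 on the log2 scale (95% interval 0.07 to 0.91, limma adjusted p = 0.0854, 23.8% of genes called) and the MMS D7 difference -0.46 (adjusted p = 0.114, 22.4% called). Without MMS D7 replicate 2 the MMS D7 difference was -0.79 and passed (adjusted p = 0.0113).

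In MMS D14 cartilage Rbp4 fell relative to Control (log2 difference -1.58, 3.05-fold lower, adjusted p = 6.13e-05, 53.5% of genes called). MMS D28 stood at -1.63, without a test because the table is selected on that comparison, and 97.3% of genes were called in it. Rbp4 fell in MMS D7 relative to MMS D3 (log2 difference -0.95, adjusted p = 0.00673, 16.9% called) and in MMS D14 relative to MMS D7 (-1.12, adjusted p = 0.00597, 16.9% called). The call of MMS D7 against MMS D3 was lost without MMS D3 replicate 1 (adjusted p = 0.0595) or MMS D7 replicate 1 (0.0510), and the other without MMS D7 replicate 2 (0.0587) or MMS D14 replicate 2 (0.0525). MMS D28 and MMS D14 were not distinguished (-0.05, 95% interval -0.48 to 0.37, adjusted p = 0.841, 21.9% called), and with centring or without MMS D28 replicate 1 the sign turned (0.03 and 0.12).

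R1 cartilage had Rbp4 signals of 48.26 and 48.89, and R2 cartilage 61.32 and 66.74, all between the MMS D14 samples and the Control samples (51% of genes in R1 and 26.7% in R2 lay wholly below Control). Rbp4 fell relative to Control in R1 (log2 difference -1.06, adjusted p = 0.00240, 69.2% of genes called). In R2 it was at -0.67 (95% interval -1.10 to -0.25, adjusted p = 0.117), a comparison with 0.747% of genes called. Against MMS D14, R2 rose by 0.91 (adjusted p = 0.00320, 35.7% called) and R1 was at 0.52 (adjusted p = 0.0869, 18.1% called). Against MMS D28, R2 rose by 0.96 (adjusted p = 0.00155, 79.1% called) and R1 was at 0.57 (adjusted p = 0.0840, 7.6% called). In cartilage, comparisons that hold MMS D28 or Control samples share them with the comparison on which the listed genes appear selected. A listed gene that is low in MMS D28 was thus favoured to rise against it, and these calls are a description. R2 and R1 did not differ past the threshold (0.39, -0.03 to 0.81, adjusted p = 0.124, 35.6% called).

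Several marker lists moved in cartilage as well. The 2 listed synovial lining markers summed to 6188 to 6950 in MMS D3, 1140 to 2057 in MMS D14 and 1756 to 2207 in MMS D28, against 2940 to 4277 in Control, on the same side of Control as Rbp4 in each. In MMS D7 (2399 to 3233), R1 (2219 to 3424) and R2 (1977 to 3119) the sums overlapped Control, whereas Rbp4 lay wholly below it. Nearly all of each sum was Prg4 (1138 to 6948 over samples, against 1.18 to 4.77 for Clic5). In synovium the 4 listed lining markers summed to 327 to 419 FPKM in MMS D14, against 600 to 769 FPKM in Control. The 5 listed chondrocyte markers of cartilage summed to 2342 to 2363 in MMS D3, 1141 to 1285 in MMS D14 and 667 to 1279 in MMS D28, against 1937 to 2615 in Control, so in MMS D3, where Rbp4 was above Control, they overlapped it. The 4 B cell markers were lower in every MMS group and in R1, at 284 to 329 in MMS D3, 146 to 158 in MMS D14 and 91.1 to 152 in MMS D28, against 469 to 520 in Control. In R2 they summed to 620 to 621, above Control, whereas Rbp4 was below it. The 7 neutrophil markers summed to 25196 to 28139, 34400 to 42658 and 45369 to 59109 in MMS D3, MMS D14 and MMS D28, against 28747 to 29115 in Control. Osteoblast markers (6 listed) summed to 2209 to 2750 in MMS D3 and 1981 to 3322 in MMS D28, against 5448 to 5721 in Control. Fibroblast markers (4 listed) summed to 539 to 765 in MMS D14, against 97.8 to 131 in Control, and overlapped Control in MMS D3. Only 3 of 17 fat cell markers (Cfd, Car3 and Dgat2) were listed, with sums of 231 to 241 in MMS D14 and 220 to 586 in Control. These sums were below Control in MMS D3 (88.5 to 100), where Rbp4 was above it, and in MMS D7 (137 to 151) and R1 (86.4 to 90.0). They overlapped Control in MMS D28 (109 to 226) and R2 (148 to 259). The part of these markers in the Rbp4 values was not tested. Levels of the tables were normalised separately, so tissues are set side by side and were not tested against each other. The log2 difference of Rbp4 from Control was -2.10 in synovium and 0.49 in cartilage in MMS D3, and -3.38 and -1.58 in MMS D14. It was -1.27 and -1.06 in R1, and -1.13 and -0.67 in R2.

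Among other retinoid genes, 21 of the list besides Rbp4 and Retsat were listed in synovium, and most fell in MMS D7 and MMS D14 but not in MMS D3. Relative to Control, 8 fell in MMS D3, 1 rose and 19 fell in MMS D7, and 2 rose and 19 fell in MMS D14, in comparisons where 55.9%, 85.7% and 96.9% of all genes were called in either direction and 39.6%, 61.6% and 69.3% called lower. The MMS D14 counts are a description, as the listed genes appear selected on that comparison. The list medians were -0.41, -1.05 and -1.85, against -0.34, -0.65 and -1.08 for all genes. In R1 16 fell, and in R2 15 fell (45.2% and 45.1% of all genes called lower), with list medians of -0.90 and -0.83 against -0.38 for all genes in each. Lipe, Pnpla2 and Pparg belong to the fat cell markers as well. With centring, 5 genes passed in MMS D3.

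**Figure D4:**
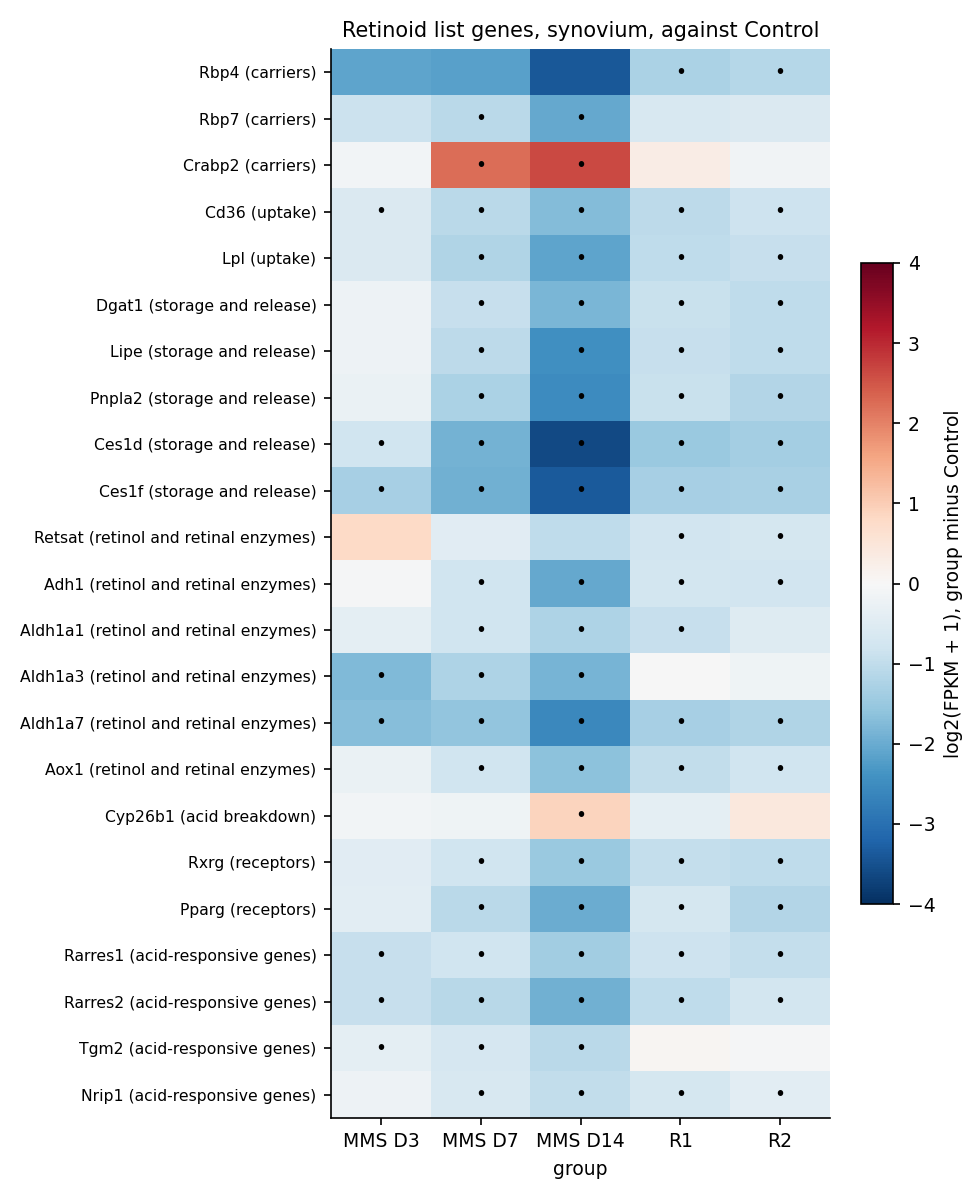
Log2 difference from Control in synovium for the 23 listed retinoid genes, ordered by role, for each group, with a dot where the limma adjusted p was under 0.05 (no dot was drawn for Rbp4 and Retsat in MMS groups, which were not tested). Ces1d and Ces1f are darkest blue beside Rbp4 in MMS D14, at -3.60 and -3.37, and Crabp2 is red in MMS D7 and MMS D14, at 2.24 and 2.63.

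Of the carriers, Crabp2, which delivers retinoic acid to its nuclear receptor, moved against Rbp4. Crabp2 measured 7.18, 3.88 and 4.72 FPKM in Control, 6.16, 2.62 and 6.21 in MMS D3, 30.01, 24.23 and 29.84 in MMS D7, and 38.13, 51.12 and 25.68 in MMS D14. It rose in MMS D7 (log2 difference 2.24, limma adjusted p = 1.61e-05). In MMS D14 it was at 2.63, given without a test because 96.9% of all listed genes were called there. R1 and R2 were lower than MMS D14 (log2 differences -2.34 and -2.76), and in neither was a difference from Control detected (0.29 and -0.13, adjusted p = 0.441 and 0.731). Rbp7, a retinol-binding protein of fat tissue and its vessels, was below Control with Rbp4 in MMS D14 (-2.04).

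Uptake and storage genes moved in the direction of Rbp4 in the later MMS groups, and only in part in MMS D3. Cd36, a fatty acid receptor, was at -1.75 in MMS D14, and Lpl, the lipase that frees retinyl esters and fatty acids from lipoproteins, was at -2.11. Dgat1, which esterifies retinol as well as diacylglycerol, was at -1.84, and the lipase genes Lipe and Pnpla2 at -2.45 and -2.53. Ces1d and Ces1f, carboxylesterases with retinyl ester hydrolase activity, were at -3.60 and -3.37, as low as Rbp4. All 7 fell in R1, R2 and MMS D7, and the MMS D14 values are given without a test. In R1, R2, MMS D7 and MMS D14, 45.2%, 45.1%, 61.6% and 69.3% of all genes were called lower. In MMS D3, Cd36, Ces1d and Ces1f fell (-0.56, -0.80 and -1.33), whereas Lpl, Dgat1, Lipe and Pnpla2 did not pass (-0.57, -0.21, -0.21 and -0.26), beside -2.10 for Rbp4.

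The enzyme genes beside Retsat differed among themselves. Aldh1a3, a retinal dehydrogenase that makes retinoic acid, measured 55.28, 49.88 and 54.64 FPKM in R1, 43.68, 47.46 and 52.37 in R2, and 47.3, 57.57 and 55.84 in Control. It measured 17.25, 16.44 and 12.16 FPKM in MMS D3, 24.46, 26.83 and 16.72 in MMS D7 and 12.8, 14.93 and 14.48 in MMS D14. Aldh1a3 fell in MMS D3 and MMS D7 (log2 differences -1.75 and -1.23, limma adjusted p = 1.2e-06 and 1.53e-05). In MMS D14 it was at -1.85, given without a test. The Aldh1a3 difference of R1 and R2 from Control was not detectable (adjusted p = 0.984 and 0.439), unlike Rbp4 and Retsat, which fell there. Adh1, an alcohol dehydrogenase, Aldh1a1, a retinal dehydrogenase, Aldh1a7, its close relative, and Aox1, an aldehyde oxidase, were at -2.04, -1.22, -2.57 and -1.65 in MMS D14. Reads of Aldh1a1 and Aldh1a7, which have similar sequences, may have been split between them.

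Cyp26b1, which breaks down retinoic acid, measured 10.39, 11.88 and 10.75 FPKM in MMS D14 and 7.36, 6.98 and 3.14 FPKM in Control, a log2 difference of 0.88. It did not pass in MMS D3 or MMS D7 (-0.12 and -0.16). Rxrg and Pparg, nuclear receptor genes, were at -1.49 and -1.99 in MMS D14, given without a test. Of the genes known to respond to retinoic acid, Rarres2 (the chemerin gene) was at -1.92, Rarres1 at -1.39, Tgm2 (a transglutaminase) at -1.06 and Nrip1 (a nuclear receptor corepressor) at -0.99 in MMS D14. All were below Control there, where 69.3% of all genes were called lower and the median gene was at -1.08. Tgm2 and Nrip1 were thus no lower than the median gene. Tgm2 differed from Control in neither R1 nor R2 past the threshold (0.07 and -0.04).

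In cartilage, 10 retinoid genes besides Rbp4 were listed, and they moved in both directions. Against Control, 1 rose and 2 fell in MMS D3, 1 rose and 1 fell in MMS D7, 3 rose and 1 fell in MMS D14, 4 rose and 5 fell in MMS D28, and 5 rose and 3 fell in R1. Of all genes, 23.8%, 22.4%, 53.5%, 97.3% and 69.2% were called in these comparisons in either direction. The MMS D28 counts are a description, as the table is selected on that comparison. Fabp5, which carries fatty acids and retinoic acid, rose in MMS D14, where it measured 22.74 and 19.43, against 8.64 and 9.56 in Control (log2 difference 1.13). Lipc, a lipase, fell in MMS D3 (1.75 and 1.15, against 7.76 and 7.39 in Control, log2 difference -1.82, adjusted p = 0.000551). The counts varied with the left-out library and were 1 to 5 in MMS D14 and 4 to 5 in R1. In R2 limma called 0 of the 10 genes (0.747% of all genes), and 1 of them had an unadjusted p under 0.05.

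Genes whose levels followed the members over samples, by Pearson correlation of log2(value + 1), are given as a description, with samples sharing libraries and groups. Over the 18 synovium samples, the closest to Rbp4 were Tmem45b (r = 0.975), Dgat2 (0.968), Acbd4 (0.968), Slc25a10 (0.967) and Hcar1 (0.967), where the median over all 1177 other genes was 0.711. Retsat correlated with Rbp4 at 0.25, rank 825. The closest to Retsat were Bcar3 (0.966), Mocs1 (0.943), Mc2r (0.942), Oplah (0.931) and Adora1 (0.922), with a median of 0.346, and each of these 5 had its highest group mean in MMS D3, as Retsat did. Over the 14 cartilage samples the closest to Rbp4 were Tnfrsf11b (0.978), Itpr3 (0.977), Cbx7 (0.970), Pcolce2 (0.967) and Cobll1 (0.966), with a median of 0.148.

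Of the 4 genes next to the members on the chromosome, Ffar4 and Elmod3 were listed in synovium, and Pde6c (7499 bases from Rbp4) and Tgoln1 (6 bases from Retsat) were listed in neither table. Ffar4, a fatty acid receptor gene whose end lies 2365 bases from Rbp4, fell in MMS D3, MMS D7 and MMS D14 (log2 differences -0.99, -1.32 and -2.54). Elmod3, 61 bases from Retsat, was at -0.03 in MMS D3, where Retsat was at 0.79, and below Control in MMS D7 and MMS D14 (-0.55 and -1.03). It ranged from 8.74 to 18.1 FPKM in MMS D7, lowest in a library that stood apart, against 19.93 to 21.6 FPKM in Control. The median gene was at -0.65 in MMS D7 and -1.08 in MMS D14. In MMS D3, MMS D7 and MMS D14, 39.6%, 61.6% and 69.3% of all genes were called lower, and the MMS D14 differences are a description.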

How the data were processed

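RNA from synovium and cartilage was extracted with Trizol and made into BGI libraries, per the labels' protocols. HISAT2 and the build mm10 are named in the submitters' processing notes. The authors deposited FPKM for synovium, per the file headers. For cartilage the authors deposited a signal that is already normalised, in an unstated unit. No counts were used, so depth is unknown, and the number of replicates (3 per synovium group, 2 per cartilage group) limits precision.

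Values entered the analysis as log2(value + 1). Requiring a value of 1 or more in the number of samples of the smallest group removed 0 genes. A limma model (version 3.58.1, R 4.3.3) with a variance trend was fitted per tissue over all groups, after being tested on simulated data with known changes. Benjamini-Hochberg adjustment covered all listed genes, and an adjusted p under 0.05 was called. For Rbp4 and Retsat, steps between MMS groups of synovium had been planned as tests but are given without one. Ratios within samples were tested by exact permutation (scipy 1.17.1). Named genes were Rbp4, Retsat, every listed gene of the retinoid list (77 symbols), the 5 genes most correlated with each member, and cell type markers (fat cell, 17 symbols). Ffar4 and Elmod3, the markers Plin4 and Adrb3, and the list genes described in detail were singled out after their values were seen. Members and lists were chosen with earlier results of these data known. As alternatives, samples were centred on their medians, the pseudocount was set to 0.1, the filter or the trend was dropped, a replicate block was added, the fit was restricted to the 2 groups compared, and each library was left out. Adding a term for the 5 libraries that stood apart, or leaving them out, was chosen after seeing the data. Annotation was GENCODE vM21 and RefSeq GRCm38.p6. Software was Python 3.11.15, pandas 2.3.3, numpy 2.4.6 and, for plots, matplotlib 3.10.9.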

Additional observations from a re-analysis of the deposited data

Results flagged for a closer look

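Rbp4 and Dgat1 lay on opposite sides of Control in synovium and cartilage, with all samples of the group on 1 side in each tissue, and the differences between tissues were not tested because the tables were normalised separately. In MMS D3, Rbp4 was at -2.10 in synovium and 0.49 in cartilage (log2 difference from Control), and the cartilage difference did not pass the adjusted p threshold. There, 42.4% of synovium genes lay wholly below Control and 41.3% of cartilage genes wholly above it. For Dgat1 the differences were -1.84 in synovium and 0.58 in cartilage in MMS D14, -0.90 and 0.76 in R1, and -1.03 and 0.25 in R2, where the cartilage difference did not pass. The share of all genes on opposite sides of Control in the tissues was not computed. These came from 5 list genes found in both tables and 5 groups compared.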

How the results depend on the processing

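Of the alternatives run on the members' differences, the list counts and the ratios, most left the result unchanged (617 values). For tested differences, unchanged meant the same sign and side of the threshold. For untested differences and ratios it meant the same sign and a shift under the within-group SD, and for list counts an equal or near count. Of the rest, 27 moved, 14 changed sign, 9 came past the threshold and 5 lost it. The exceptions follow, as log2 differences unless called counts, and the cause was not tested. Centring each sample on its median gave, in synovium against Control, -2.86 for Rbp4 in MMS D14 and -0.17, -0.50 and -0.48 for Retsat in MMS D7, MMS D14 and R2. With centring, Rbp4 in MMS D7 against MMS D3 was at 0.082, Retsat in R1 against MMS D14 at -0.069, Rbp4 in MMS D28 against MMS D14 in cartilage at 0.034, and 5 list genes were called in MMS D3 synovium. Fitting only the 2 groups compared brought Rbp4 in cartilage past the threshold in MMS D3 against Control (0.49), R1 against MMS D14 (0.52) and R2 against R1 (0.39). A term for the 5 libraries that stood apart gave Retsat 0.39 in R1 against MMS D14 and -0.067 in R2 against R1. Without these libraries Rbp4 was at -3.83 in MMS D14 against Control and 0.074 in MMS D7 against MMS D3 and -1.53 in MMS D14 against MMS D7, and Retsat at 0.43 (R1) and 0.31 (R2) against MMS D14 and -0.12 in R2 against R1. The ratio of Rbp4 to the fat cell markers was then at -1.62, -1.05, -1.14 and -0.38 in MMS D3, MMS D7, MMS D14 and R1.

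Leaving out 1 library at a time, synovium ranges were -0.27 to 0.094 for Rbp4 in MMS D7 against MMS D3, 0.14 to 0.49 for Retsat in R2 against MMS D14 and -0.12 to 0.15 in R2 against R1. Rbp4 in cartilage ranged from -0.79 to -0.14 in MMS D7 against Control, -1.28 to -0.63 in MMS D7 against MMS D3, -1.45 to -0.79 in MMS D14 against MMS D7, -0.22 to 0.12 in MMS D28 against MMS D14 and 0.40 to 0.74 in R1 against MMS D28. List counts in cartilage ranged from 0 to 1 in MMS D7, 1 to 5 in MMS D14 and 4 to 5 in R1. The ratio of Rbp4 to the fat cell markers ranged from -1.65 to -1.26 in MMS D3, -1.03 to -0.65 in MMS D7, -1.08 to -0.70 in MMS D14, -0.38 to -0.0024 in R1 and -0.23 to 0.15 in R2, with the lowest value in each of the 3 MMS groups without Control replicate 3. In cartilage a left-out library leaves an arm with 1 sample, which is assumed to vary like the other groups.

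Replicate numbers did not meet the requirement for pairing, since not every pair of same-numbered samples had deviations correlated over 0.1. In synovium 26 of 45 pairs did (median r 0.13, highest 0.66, against a median of -0.066 between other numbers), and replicate 3 of 5 of the 6 groups forms the set that stood apart, so a number carried a shared deviation there. In cartilage 12 of 42 pairs did. With the replicate block, 1 list gene was called in MMS D7 cartilage, against 2 without it, no call of Rbp4 or Retsat changed, and the adjusted p of Retsat was 0.00137 in R1 and 0.00232 in R2 against Control. Depth is unknown, and cartilage groups have 2 samples each.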
